A study of Mus musculus with 8 samples.

Results

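The cell cycle gate described here comprised 10 genes of the transition from G1 to S phase. They were the D-type cyclins Ccnd1, Ccnd2 and Ccnd3, their kinases Cdk4 and Cdk6, the kinase inhibitors Cdkn1a, Cdkn1b and Cdkn2c, the retinoblastoma gene Rb1, and Myc. They were taken by symbol from the 41444 genes of the expression table. All 10 were found, each in a single row. All 10 also had a mean of at least 4 on the table's log2 scale, the minimum set for testing, which 11851 genes met.

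Macrophages were grown from the bone marrow of wild-type C57BL/6 mice in medium with serum and 100 ng/mL M-CSF, the growth factor that drives macrophage survival and division, so both groups carried this mitogen. One group of 4 libraries came from cells kept 16 hours with SLIT2 at 6 nM, and the other 4 came from vehicle controls. SLIT2 is a secreted protein that binds ROBO receptors. The labels state neither the age and sex of the mice nor whether animals were pooled. RNA was measured by sequencing, and the values are regularized-log (rlog) values on a log2 scale, so a difference of 1 is a doubling.

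D-type cyclins bind CDK4 or CDK6, and the complexes phosphorylate the retinoblastoma protein, which then releases E2F transcription factors that switch on the genes of DNA synthesis. INK4 inhibitors such as the product of Cdkn2c bind the kinases alone, while CIP/KIP inhibitors such as those of Cdkn1a and Cdkn1b bind cyclin-kinase complexes. Myc, a transcription factor of growth genes, and the D-type cyclins are textbook responses of macrophages to M-CSF.

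The 11 macrophage markers checked all passed the minimum, and the log2 of their summed linear level was 19.2 to 19.7 in both groups. That sum was 2.43 to 2.59 in vehicle and 2.44 to 2.5 in SLIT2 for T cell markers, and 5.3 to 5.79 and 5.27 to 5.44 for neutrophil markers. For fibroblast and stromal markers it was 8.91 to 9.64 and 9.18 to 9.82, for endothelial markers 9.53 to 9.66 and 9.68 to 10.2, and for erythroid and megakaryocyte markers 9 to 10.5 and 9.92 to 12.3. All 4 mast cell markers were listed at 0. Of the 11 macrophage markers, 3 were called higher and 1 lower with SLIT2 in the test described below, which 13.3% of all genes passed. Of the 7 fibroblast and stromal markers, 1 was called higher, and no marker of the other lists was called. The highest single marker value lay near the highest log2 sum for macrophage (19.1), endothelial (10.1) and erythroid and megakaryocyte markers (12.3). Those sums thus mostly describe a single gene. Of the 6 erythroid and megakaryocyte markers, only 1 passed the minimum. The part of other cells in the results below was not tested. In these bulk samples, a change in the number of dividing cells and a change in RNA per cell cannot be told apart. Replicates 1 and 2 stood apart from replicates 3 and 4 in both groups, and these are called replicate sets. Xist, the X-inactivation RNA, ranged from 7.47 to 7.65 in replicates 1 and 2 and from 12.69 to 12.79 in the other set. Ddx3y, a gene of the Y chromosome, went the other way, with 10.75 to 10.83 and 5.9 to 6.45. The sets thus differed in these sex-linked RNAs in both groups, and what else set them apart was not tested.

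The regions before a start site of Cdk4 and of Cdk6 are shown because these kinases share their cyclin partners. Among the windows searched below for the 10 genes, only theirs held a match. Myc, an E-box binding factor, is a member too. RefSeq's table of start sites (GRCm38.p6) matched 6 of the 10 genes (Ccnd3, Cdk4, Cdk6, Cdkn1a, Cdkn1b and Cdkn2c), with 9 start sites. The 250 bases before each start were searched on both strands for the E-box CACGTG, which Myc and its partner Max can bind. Capitals mark each match. The Cdk6 start site lies inside the gene as placed by GENCODE M21 (3341485 to 3531008). Of the 250 bases before it, 57 lie in exons of the gene. Each sequence is printed from its upstream end to the first base that lies in an exon of the gene in GENCODE M21, so the stretches are chr10:127063285-127063533 for Cdk4 and chr5:3343643-3343731 for Cdk6, both on the plus strand of GRCm38.
Cdk4: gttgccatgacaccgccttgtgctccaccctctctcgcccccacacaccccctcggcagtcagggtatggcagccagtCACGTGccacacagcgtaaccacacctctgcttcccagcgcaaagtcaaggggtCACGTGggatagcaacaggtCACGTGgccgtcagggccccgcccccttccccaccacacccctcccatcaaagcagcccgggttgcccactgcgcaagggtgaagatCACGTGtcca
Cdk6: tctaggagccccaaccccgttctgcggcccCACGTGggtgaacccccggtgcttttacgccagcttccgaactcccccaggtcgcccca

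The Cdk4 window held 4 E-boxes, beginning 172, 118, 98 and 11 bases before the start site, and the Cdk6 window held 1, beginning 220 bases before it. Of 32851 such promoter windows in the table, 6.02% held CACGTG and 7 windows (0.0213%) held it at least 4 times. That cutoff equals the count of the Cdk4 window, so the share describes this window and is no test of it. The other 7 windows of the matched genes held no CACGTG. The letters TTCNNNGAA (STAT, in 7.02% of all windows), TGANTCA (AP-1, 6.75%), TGACGTCA (CRE, 1.55%) and TTTGGCGC or TTTCGCGC (E2F, 0.654%) had no match in any of the 9 windows. A match describes letters and not binding.

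SLIT2 was compared with vehicle for all genes tested with limma, without a block, and 13.3% of them passed an adjusted p of 0.05 (6.76% higher and 6.58% lower). Of the 10 genes, 4 passed. Ccnd1, Cdk6 and Myc fell, and Ccnd3 rose. The other 6 did not pass. Over the 10 genes the median difference was -0.005 and over all genes tested 0.0025, since members stood on both sides of 0. Values of SLIT2 and vehicle libraries did not overlap at 5 of the 10 genes, against 20.5% of all genes tested. The plot of values by library shows all 8 values of every gene.

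**Figure D1:**
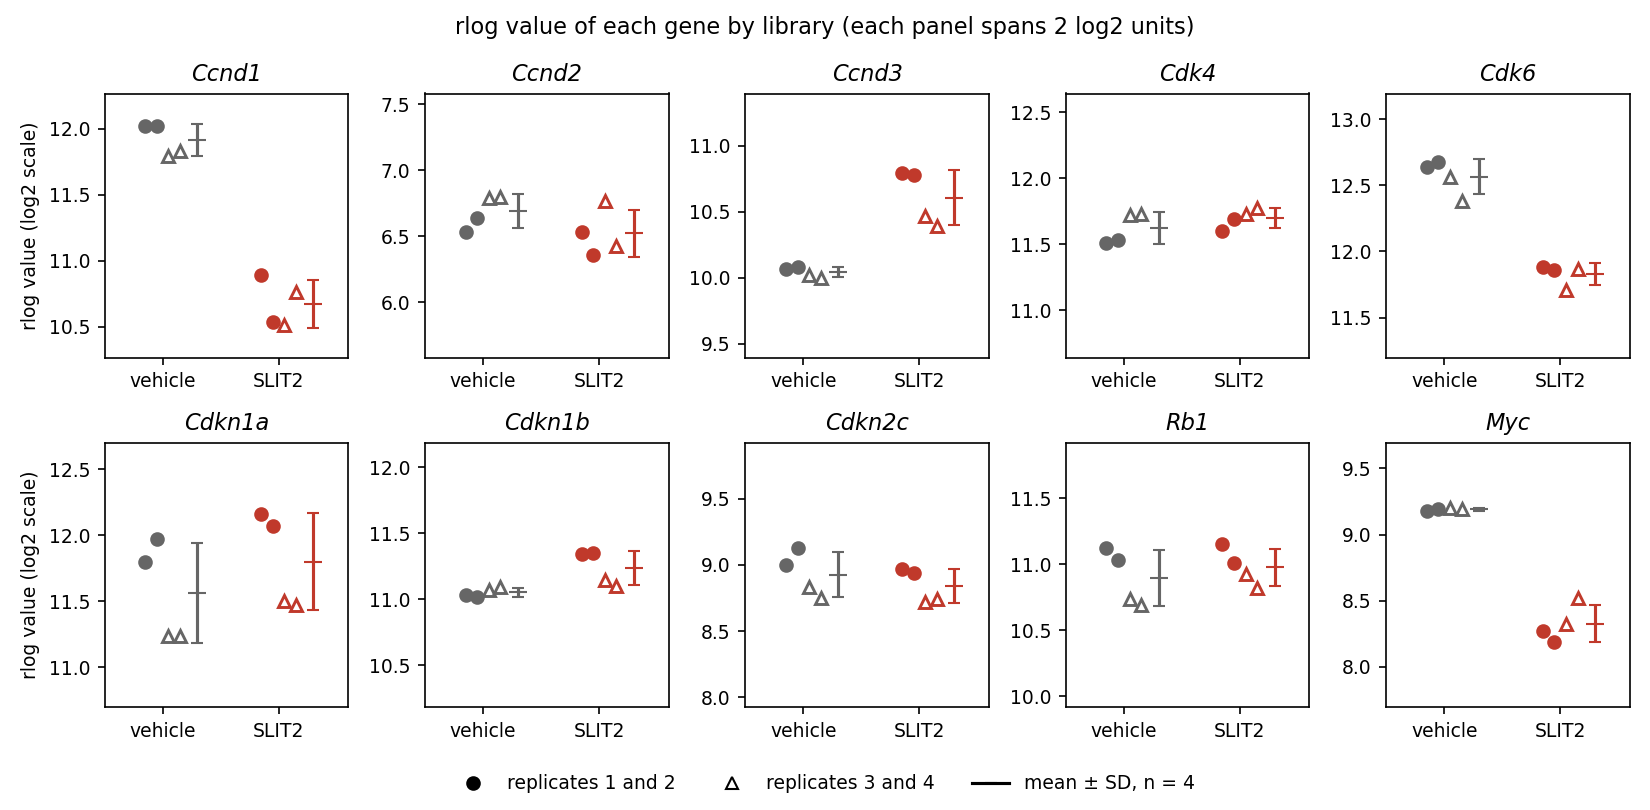
rlog values (log2 scale) of the 10 genes in 4 vehicle (grey) and 4 SLIT2 (red) libraries, with circles for replicates 1 and 2, open triangles for replicates 3 and 4, and the mean ± SD beside them. Ccnd1, Cdk6 and Myc lie lower in every SLIT2 library, Ccnd3 lies higher, and Cdkn1a is split by replicate set (11.24 against 11.8 and 11.97 in vehicle).

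Ccnd1, which encodes cyclin D1 (ENSMUSG00000070348, chromosome 7, 144929931 to 144939925, minus strand, GRCm38), had rlog values of 12.02, 12.02, 11.79 and 11.83 in vehicle replicates 1 to 4. In SLIT2 replicates 1 to 4 they were 10.89, 10.54, 10.51 and 10.76. Every SLIT2 library was lower than every vehicle library, by at least 0.90. The mean fell from 11.91 ± 0.122 to 10.68 ± 0.182 (SD, n = 4), which is -1.24 on the log2 scale (SE 0.0988, limma adjusted p = 1.97e-04) or 2.36-fold lower. The first replicate set gave -1.30 and the second -1.18. In the gene's own exons 1100 bases overlap those of LTO1 (Oraov1 in the table) on the other strand, and that gene differed by 0.11 (adjusted p = 0.173). The library kit keeps strand, but no source names the strand option used for counting, so reads of such partners may have been shared.

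Ccnd3, which encodes cyclin D3 (ENSMUSG00000034165, chromosome 17, 47505051 to 47599691, plus strand), moved the other way. Its values were 10.07, 10.08, 10.02 and 10 in vehicle and 10.79, 10.78, 10.47 and 10.39 in SLIT2. The vehicle libraries were close together, and the SLIT2 libraries all lay above them, replicates 1 and 2 most. The mean rose from 10.04 ± 0.0386 to 10.61 ± 0.208 (SD, n = 4), a difference of 0.56 (SE 0.0967, limma adjusted p = 0.00662) or 1.48-fold. The first set gave 0.71 and the second 0.42. With each pair of duplicates averaged to a single sample and the set as a block, the adjusted p was 0.07, in a fit where 5.81% of all genes passed and Ccnd1, Cdk6 and Myc still did (0.0262, 0.0309 and 0.036). Bysl shares 361 exonic bases on the other strand and rose by 0.19 (adjusted p = 0.0414).

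Ccnd2, the gene of cyclin D2, was the lowest of the family. Its values were 6.53, 6.64, 6.79 and 6.80 in vehicle and 6.53, 6.36, 6.77 and 6.43 in SLIT2, and the groups overlapped. The difference was -0.17 (SE 0.11, limma adjusted p = 0.396), or -0.25 to -0.113 with a library left out (SLIT2 replicates 3 and 2). The antisense genes 9330179D12Rik and Gm43126 share 368 and 372 of its exonic bases.

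The balance within the family therefore differed between the groups. Within each vehicle library Ccnd1 exceeded Ccnd3 by 1.95, 1.94, 1.77 and 1.83 rlog units, before any correction for length. Within SLIT2 libraries the same subtraction gave 0.10, -0.24, 0.04 and 0.37. No value of a SLIT2 library reached those of vehicle, and the mean went from 1.87 ± 0.0873 to 0.068 ± 0.25 (SD, n = 4), with a change of -2.01 for the first set and -1.6 for the other. Levels of different genes can be compared only per length, so linear rlog values were divided by each gene's summed exon length. On that scale Ccnd1 made up 87.0%, 86.8%, 85.3% and 85.7% of the D-type cyclin total in vehicle and 65.6%, 60.2%, 64.1% and 69.4% in SLIT2. Ccnd3 went from 12.6% ± 0.647 to 33.3% ± 3.82 and Ccnd2 from 1.16% ± 0.186 to 1.85% ± 0.373 (SD, n = 4). With the length of the longest transcript in place of summed exons, the Ccnd3 share was 19.8% to 21.8% in vehicle and 42.2% to 52.6% in SLIT2. With the vehicle mean set to 100, the D-type cyclin total in SLIT2 was 56.5 ± 5.78 by summed exons and 65.0 ± 6.63 by longest transcripts (SD, n = 4). These shares are descriptions of values already tested above and carry no test of their own.

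**Figure D2:**
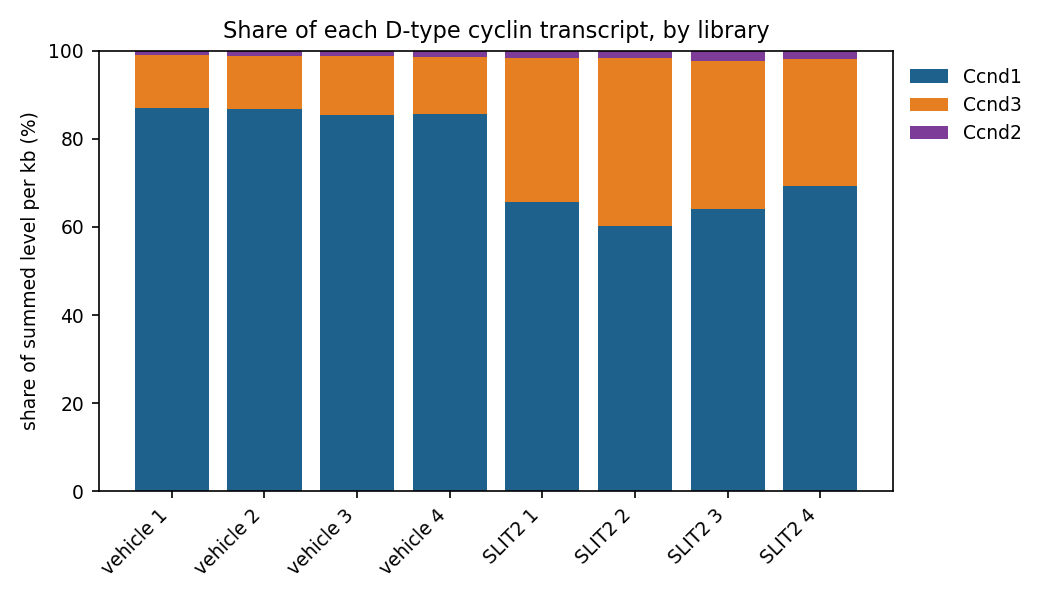
Share (%) of Ccnd1, Ccnd3 and Ccnd2 in the summed linear level per kb of exon of the D-type cyclins, with a bar for each library. Ccnd1 takes 85.3% to 87.0% of each vehicle bar and 60.2% to 69.4% of each SLIT2 bar, and Ccnd2 is a thin band at the top.

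Of the kinases, Cdk6 changed and Cdk4 did not pass the test. Cdk6 (ENSMUSG00000040274, chromosome 5, 3341485 to 3531008, plus strand) had values of 12.64, 12.68, 12.56 and 12.38 in vehicle and 11.88, 11.86, 11.71 and 11.87 in SLIT2. The groups were separated by 0.50. The mean fell from 12.56 ± 0.133 to 11.83 ± 0.0804 (SD, n = 4), a difference of -0.73 (SE 0.0732, limma adjusted p = 5.13e-04) or 1.66-fold lower. The antisense gene Gm17590 shares 368 exonic bases with it. Cdk4 (ENSMUSG00000006728, chromosome 10, 127063534 to 127067920, plus strand) had values of 11.51, 11.53, 11.72 and 11.73 in vehicle and 11.60, 11.69, 11.73 and 11.77 in SLIT2. These ranges overlapped, and the difference was 0.075 (SE 0.0672, adjusted p = 0.554), or 0.0375 to 0.111 with a library left out (vehicle replicates 1 and 4). Tspan31 shares 641 exonic bases with Cdk4 on the other strand and rose by 0.16 (adjusted p = 0.0191). Its vehicle mean was 11.8, against 11.62 for Cdk4. Within libraries, Cdk6 minus Cdk4 on the rlog scale was 1.13, 1.15, 0.84 and 0.65 in vehicle and 0.28, 0.17, -0.02 and 0.10 in SLIT2. That difference did not overlap between the groups either.

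Myc (ENSMUSG00000022346, chromosome 15, 61985391 to 61990374, plus strand) had values of 9.18, 9.19, 9.20 and 9.19 in vehicle. In SLIT2 they were 8.27, 8.19, 8.32 and 8.52. The vehicle libraries spanned only 0.02 between them, and each SLIT2 library lay at least 0.66 below the lowest of them. The mean fell from 9.19 ± 0.00816 to 8.32 ± 0.141 (SD, n = 4), a difference of -0.86 (SE 0.0747, limma adjusted p = 2.60e-04) or 1.82-fold lower. The first set gave -0.95 and the second -0.78. No exon of another gene overlaps those of Myc in GENCODE M21.

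Among the inhibitors, Cdkn1a, which encodes p21, differed more between the replicate sets than between the treatments. Its values were 11.80, 11.97, 11.24 and 11.24 in vehicle and 12.16, 12.07, 11.50 and 11.47 in SLIT2. Replicates 3 and 4 minus replicates 1 and 2 gave -0.645 in vehicle and -0.63 in SLIT2. Within the sets SLIT2 was higher by 0.23 and by 0.245, with no overlap inside either set. Without a block the difference was 0.24 (SE 0.227, limma adjusted p = 0.584). With the replicate number as a block the same difference had an SE of 0.0442 and an adjusted p of 0.00901, in a fit where 33% of all genes passed. That block raised the members called from 4 to 5, and the set as a block raised them to 6, against 39.3% of all genes. On duplicates averaged within sets, Cdkn1a did not pass (0.0663). Without a block, leaving out a library moved its difference between 0.118 (SLIT2 replicate 1) and 0.373 (vehicle replicate 2).

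Cdkn1b, which encodes p27, had values of 11.03, 11.02, 11.07 and 11.09 in vehicle and 11.34, 11.35, 11.15 and 11.10 in SLIT2. The groups did not overlap, by a margin of 0.01, because only replicates 1 and 2 stood well above vehicle. The difference was 0.18 (SE 0.0653, limma adjusted p = 0.115, and 0.0653 with the replicate block). The first set gave 0.32 and the second 0.045. Cdkn2c, which encodes p18, had values of 9, 9.13, 8.83 and 8.75 in vehicle and 8.97, 8.94, 8.72 and 8.74 in SLIT2. Its groups overlapped (difference -0.085, SE 0.102, adjusted p = 0.675). That difference lay between -0.144 and -0.0175 when a library was left out (vehicle replicates 4 and 2).

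Rb1, whose product the kinases phosphorylate, had values of 11.12, 11.03, 10.74 and 10.69 in vehicle and 11.15, 11.01, 10.93 and 10.82 in SLIT2. The groups overlapped, and both replicate sets kept their order within each group. The difference was 0.083 (SE 0.113, limma adjusted p = 0.724), and leaving out a library gave 0.0142 (vehicle replicate 4) to 0.158 (vehicle replicate 1). Rb1 shares 488 exonic bases with Rcbtb2 and 408 with Lpar6, both on the other strand. In vehicle the means of these partners were 12.1 and 12, above that of Rb1 (10.89). They differed by -0.165 and -0.0275 (limma adjusted p of 0.451 and 0.872). Oraov1 (9.27) and Bysl (8.98) instead lay below Ccnd1 and Ccnd3 in vehicle.

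The response itself was compared between the replicate sets with a limma interaction term, which rests on the spread within duplicates and which 4.4% of all genes passed. Of the 10 genes, 2 passed. They were Ccnd3, with a response smaller by 0.29 in replicates 3 and 4 (SE 0.0571, adjusted p = 0.0316), and Cdkn1b, with a response smaller by 0.275 (SE 0.0455, adjusted p = 0.0171). Both calls were lost without the mean-variance trend (adjusted p of 0.078 and 0.0715). Leaving out a single library ended the Ccnd3 call for 7 of the 8 libraries, all but SLIT2 replicate 3 (adjusted p up to 0.112). It ended that of Cdkn1b for 6, all but vehicle replicate 3 and SLIT2 replicate 3 (up to 0.0668). Ccnd1, Cdk6 and Myc did not pass this test (adjusted p of 0.715, 0.58 and 0.409).

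**Figure D3:**
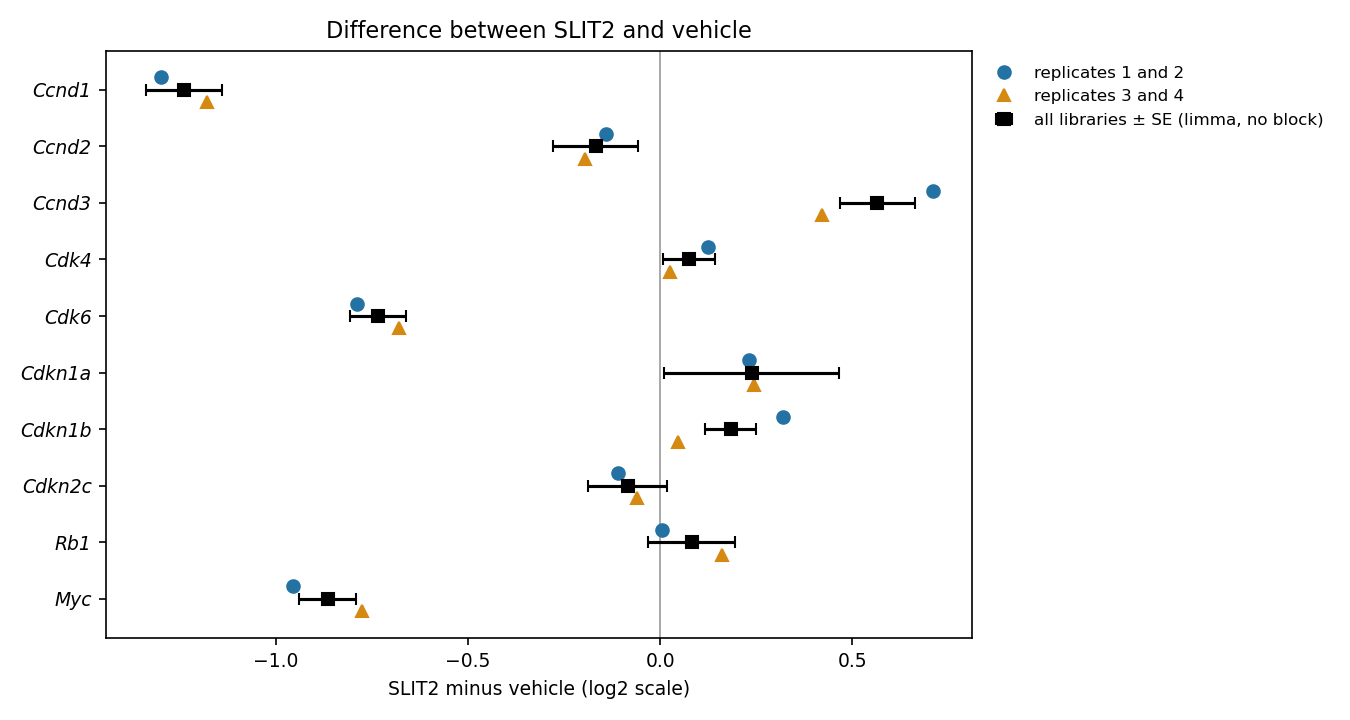
SLIT2 minus vehicle (log2 scale) for the 10 genes, with black squares ± SE over all 8 libraries and the differences within replicates 1 and 2 (blue circles) and within replicates 3 and 4 (orange triangles). Ccnd1, Myc and Cdk6 lie left of 0 and Ccnd3 right of 0 in both sets, while the sets part most at Ccnd3 (0.71 and 0.42) and Cdkn1b (0.32 and 0.045).

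Per kb of summed exon, the 3 highest members in vehicle were Cdk4 (9.92 on the rlog scale), Cdkn1a (9.73) and Ccnd1 (9.68). Neighbours among these lay closer together than the SD of Cdkn1a (0.379). Next came Cdkn1b (8.87) and Cdk6 (8.76), closer than the SD of Cdk6 (0.133), then Rb1 (8.31), Myc (7.75), Cdkn2c (7.50), Ccnd3 (6.91) and Ccnd2 (3.46). In SLIT2 the order was Cdk4 (10.0), Cdkn1a (9.97), Cdkn1b (9.05), Ccnd1 (8.44), Rb1 (8.39), Cdk6 (8.02), Ccnd3 (7.47), Cdkn2c (7.42), Myc (6.88) and Ccnd2 (3.29). Cdk4 and Cdkn1a were closer in SLIT2 than the SD of Cdkn1a (0.366), Ccnd1 and Rb1 than the SD of Ccnd1 (0.182), and Ccnd3 and Cdkn2c than that of Ccnd3 (0.208). The order depends on the length used: by longest transcript Cdkn1a (10.74) stood above Cdk4 (10.66) in SLIT2, and Ccnd3 stood higher, at 8.09 in vehicle and 8.66 in SLIT2.

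The genes with the most similar profiles were found by the root mean square difference of centred rlog values over the 8 libraries. Nearest to Ccnd1 were St3gal5, a ganglioside sialyltransferase gene (0.0696 log2 units), and Plaur, the urokinase receptor gene (0.119). Ptchd1 (0.058), the Ras family gene Mras (0.0594) and the membrane protein gene Emp1 (0.0618) were nearest to Myc. For Cdk6 they were the peroxisomal transporter gene Abcd2 (0.0607), the pyrophosphate transport gene Ank (0.0764) and the formin gene Inf2 (0.0765). For Ccnd3 they were the chemokine gene Cxcl16 (0.0408), the CREB coactivator gene Crtc3 (0.0454) and the heat shock cochaperone gene Dnajb5 (0.0505). Each of these genes passed the limma test without a block, in the direction of its member. Choosing genes by closeness to a called member over the same libraries largely fixes that outcome, so it adds no support.

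Beyond the 10 genes, 20 other genes of the G1 machinery were tested, and 1 rose and 1 fell (4 and 6 with the replicate block). That is 10% of the list, against 13.3% of all genes, and with the block 33% of all genes passed, shares against which the counts of every list are read. E2f5, a member of the E2F family that acts with Rb-related pocket proteins, rose by 0.36 (SE 0.0808, limma adjusted p = 0.0228). Its call was lost without vehicle replicate 1 or 2 or SLIT2 replicate 2, 3 or 4 (adjusted p of 0.0561 to 0.0654). E2f7, which encodes a repressor E2F, fell by 0.62 (SE 0.111, adjusted p = 0.00834). The median difference of the list was -0.048. With averaged duplicates, Kif23, Sesn1, Plk2 and Cited2 were the only ones to keep their calls among the genes named from this and the other lists that passed without a block. The following genes of the list were picked after their values were seen. Ccne2, the gene of cyclin E2, had values of 7.85, 7.64, 6.74 and 6.90 in vehicle and 6.82, 6.74, 6.07 and 6.49 in SLIT2. The sets stood apart in both groups, and the difference was -0.75 (adjusted p = 0.128, 0.00365 with the block, and 0.0811 on averaged duplicates). Ccne1, its paralog, differed by -0.04 (adjusted p = 0.895), and without vehicle replicate 1 or SLIT2 replicate 4 its sign turned (0.034 and 0.016). Cdk2, the kinase of both, differed by 0.18 (adjusted p = 0.0535 without a block, 0.0213 with it, and 0.115 on averaged duplicates).

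Of the inhibitor genes of that list, also picked after their values were seen, Cdkn1c and Cdkn2d had wide spreads. Cdkn1c, which encodes p57, had values of 10.30, 10.32, 11.80 and 12.43 in vehicle and 9.61, 9.71, 10.49 and 10.24 in SLIT2. It was lower with SLIT2 in every same-numbered pair, and the mean difference was -0.65 for the first set and -1.75 for the other. Over all libraries the difference was -1.20 (SE 0.493, limma adjusted p = 0.168, 0.0145 with the block, and 0.126 on averaged duplicates). It was -1.5 without vehicle replicate 1 or 2 and -0.794 without vehicle replicate 4. Cdkn2d, which encodes p19, had values of 5.01, 4.82, 6.06 and 6.15 in vehicle and 4.92, 6.53, 7.54 and 6.87 in SLIT2. SLIT2 replicate 1 lay among the vehicle values, and the difference was 0.95 (SE 0.562, adjusted p = 0.339, 0.0476 with the block, and 0.0462 on averaged duplicates). It was 1.47 without SLIT2 replicate 1 and 0.597 without SLIT2 replicate 3. Cdkn2b, which encodes p15, was low in both groups and differed by -0.14 (adjusted p = 0.614), or by -0.228 to -0.0483 with a library left out (vehicle replicates 4 and 2).

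Of 25 E2F target genes of S phase, 3 fell and 22 did not pass, so that 12% were called, against 13.3% of all genes and 6.58% lower. With the replicate block 16 fell, where 16.4% of all genes were called lower. The median difference was -0.34, against 0.0025 over all genes tested, and 23 of the 25 were below 0. Mcm6, a subunit of the replicative helicase, fell by 0.57 (SE 0.0822, limma adjusted p = 0.00289). Its difference was -0.77 for the first set and -0.375 for the other. Cdt1, which loads that helicase, fell by 0.43 (adjusted p = 0.00287). Pcna, the sliding clamp of DNA polymerase, fell by 0.45 (adjusted p = 0.0438), a call lost without any of vehicle replicates 1 to 4 or SLIT2 replicates 1 to 3 (0.0643 to 0.107), with quantile normalization (0.0734) and with median centring (0.0557). Rrm2, of ribonucleotide reductase, and the maintenance methyltransferase gene Dnmt1 were picked after their values were seen. They differed by -0.62 and -0.34, with adjusted p of 0.284 and 0.296 without a block and of 6.74e-04 and 9.50e-04 with it (0.0469 and 0.047 with averaged duplicates). The list median was -0.48 for the first set and -0.20 for the second.

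Of 25 mitotic genes, 1 fell and 24 did not pass, so that 4% were called, against 13.3% of all genes. With the block 14 fell and 1 rose, where 16.4% of all genes were called lower and 16.6% higher. The median was -0.32, with -0.375 for the first set and -0.185 for the other, and 22 of the 25 were below 0. Mki67, the Ki-67 proliferation marker gene, was picked after its values were seen. It is among the 3 of the 25 above 0, with a difference of 0.125 (limma adjusted p = 0.919). Its values were 11.34, 11.32, 9.68 and 9.82 in vehicle and 11.32, 11.36, 10.04 and 9.94 in SLIT2. The sets thus stood apart in both groups while the treatments overlapped. Without a block the gap between the sets entered its SE, which was 0.514, against 0.064 with the block. Kif23, a kinesin of cytokinesis, fell by 1.38 (SE 0.0938, limma adjusted p = 9.18e-05), from 9.17, 9.13, 9 and 9.05 to 7.93, 7.76, 7.62 and 7.53. Its groups were far apart, with -1.30 for the first set and -1.45 for the other.

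Of the 8 tested genes of the network of Myc, Max and Mlx, not all of which encode partners of Myc, 3 rose and 2 fell. That is 62.5% called, against 13.3% of all genes, with a median of 0.039. The block gave the same counts. Max, the obligate partner of Myc, rose by 0.20 (SE 0.0396, limma adjusted p = 0.013), though with quantile normalization its adjusted p was 0.123. Mxd1, a Max-binding repressor, rose by 0.53 (adjusted p = 0.0405), by 0.685 for the first set and 0.375 for the other. Mlx rose by 0.25 (adjusted p = 0.0401). The repressor genes Mxd4 and Mnt fell by 0.31 and 0.17 (adjusted p of 0.00943 and 0.0328). Leaving out single libraries ended the calls of Mxd1 (any but SLIT2 replicates 3 and 4, adjusted p up to 0.1), Mlx (any but vehicle replicate 2, up to 0.0996) and Mnt (any but SLIT2 replicate 1, up to 0.0896). Max and Mxd4 kept theirs in all 8 such fits.

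Of 24 Myc target genes of ribosome assembly, metabolism and chaperoning, 1 fell and 23 did not pass (4.17% called, and 6 fell with the block). The median was -0.068, and 19 of the 24 were below 0. Npm1, the nucleolar protein gene nucleophosmin, fell by 0.23 (SE 0.0491, limma adjusted p = 0.0163, and 0.0506 without SLIT2 replicate 1). Among 14 genes of cyclin D, p27 and Myc turnover, 1 fell and 13 did not pass (7.14% called, and 3 fell with the block). It was Fbxo31, an F-box gene, lower by 0.19 (adjusted p = 0.0431), and its call was lost in each of the 8 fits that left out a library (0.0686 to 0.107).

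Of 22 p53 target genes other than Cdkn1a, 1 rose and 3 fell, which is 18.2% called against 13.3% of all genes (3 and 7 with the block, against 33%), with a median of -0.10. Apaf1, the apoptosome scaffold gene, rose by 0.56 (SE 0.0717, limma adjusted p = 0.00156). Sesn1, a sestrin, fell by 0.50 (SE 0.041, adjusted p = 2.37e-04), Plk2 by 0.60 and Gdf15 by 0.57. Of 13 FoxO target genes other than Cdkn1b, 2 rose and 2 fell, or 30.8% called (2 and 5 with the block), with a median of -0.088. Cited2, a transcriptional coregulator, fell by 0.52 and the insulin receptor substrate gene Irs2 by 0.48 (adjusted p of 0.00129 and 0.00136). Bcl2l11, which encodes the death protein BIM, rose by 0.17 and the repressor gene Bcl6 by 0.17 (0.0252 and 0.0405), and with quantile normalization neither passed (0.124 and 0.212), nor did Bcl6 with median centring (0.0798). The call of Bcl2l11 was lost without vehicle replicate 2, 3 or 4 or SLIT2 replicate 1, 3 or 4 (0.0554 to 0.0705). That of Bcl6 was lost without vehicle replicate 1, 2 or 4 or any SLIT2 replicate (0.0726 to 0.108).

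**Figure D4:**
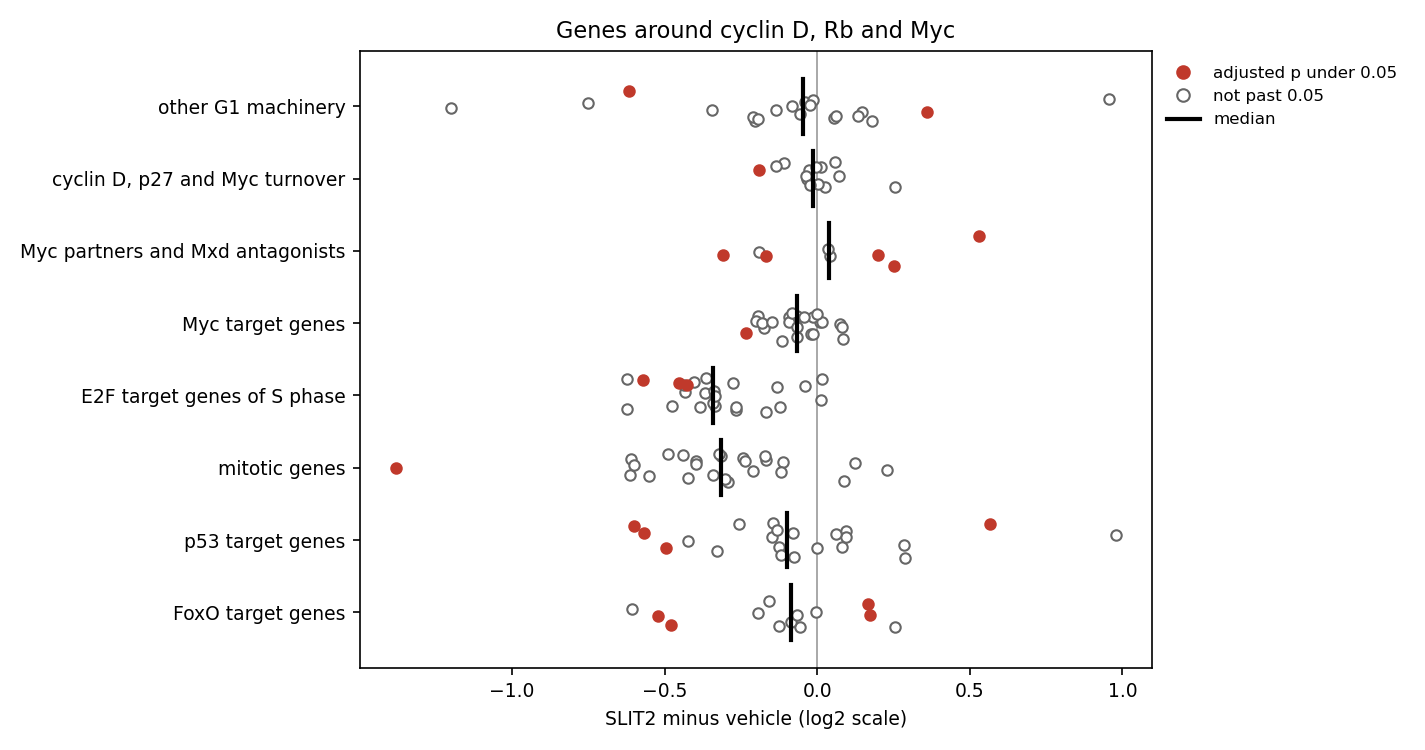
SLIT2 minus vehicle (log2 scale) of each tested gene in 8 lists around cyclin D, Rb and Myc, with a point for each gene (red where the adjusted p was under 0.05), jittered vertically, and a black bar at the list median. The medians of the E2F target (-0.34) and mitotic (-0.32) lists lie furthest left. Red marks the fit without a block, in which 3 and 1 of their genes passed, against 16 and 15 with the replicate block.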

How the data were processed

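RNA-seq of 4 vehicle and 4 SLIT2 macrophage libraries was used as deposited, in log2 units: the authors gave rlog values to 2 decimals, corrected for library size and shrunk most at low counts. Per the submitters' processing notes, FastQC, SAMtools, Picard, STAR, Salmon and DESeq2 were used with mm10 and GRCm38; the notes give no roles or settings. Without read counts, depth and counting error are unknown.

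Every gene with a mean of 4 or more entered limma 3.58.1 under R 4.3.3 (mean-variance trend, two-sided, Benjamini-Hochberg, threshold 0.05), and the steps were tested on simulated data. Same-numbered samples deviated together (correlations across genes of 0.637, 0.671, 0.753 and 0.587 for replicates 1 to 4), and the numbers were taken to pair samples. Others of the same set correlated at 0.601 to 0.722, so these values do not show pairing within a set. The labels do not say that replicates were separate cultures, so the p-values reflect only variation among these libraries, possibly technical.

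The members, lists and tests were chosen with earlier results of these data known. Named genes were all members, up to 3 called genes per list and direction (or the smallest p), and the 3 nearest profiles of each called member without clone or model names; exceptions are stated, and 1 nearest profile is not reported here. List genes were matched by gene identifier to GENCODE M21 symbols, which also gave coordinates, lengths and overlaps. Promoters came from RefSeq. Figures used matplotlib 3.10.9. Alternatives were a replicate or set block, averaged duplicates, single sets, other filters, scalings, priors and weights, and leaving out each library.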

Additional observations from a re-analysis of the deposited data

Results flagged for a closer look

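The SLIT2 response differed between the replicate sets by the limma interaction test at 4 of 39 named genes checked, where 4.4% of all genes passed. In replicates 3 and 4 against replicates 1 and 2 it was different by -0.29 for Ccnd3 (0.71 in replicates 1 and 2, 0.42 in replicates 3 and 4, adjusted p = 0.0316) and by -0.275 for Cdkn1b (0.32 and 0.045, adjusted p = 0.0171). For Mcm6 the difference was 0.395 (-0.77 and -0.375, adjusted p = 0.0203) and for Cdkn1c -1.10 (-0.65 and -1.75, adjusted p = 0.0454). Each rests on the spread within duplicates, and the calls of Ccnd3 and Cdkn1b were lost without the mean-variance trend. That fit is not given here for Mcm6 and Cdkn1c. Some of the 39 genes, Cdkn1c among them, were picked after their values were seen, so their count is not a like match to the 4.4%.

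In SLIT2 replicate 3, Cdk6 was 11.71, apart from the other SLIT2 libraries at 11.86 to 11.88. It was the only such sample among 78 groups of 4 checked, and chance gives about 1 in 20 groups.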

How the results depend on the processing

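Ccnd1, Cdk6 and Myc passed in all 20 alternatives, with differences of -1.31 to -1.18, -0.797 to -0.68 and -0.955 to -0.775. Ccnd3 passed in 19, all but averaged duplicates. Between 3 and 6 members were called, 5 with the replicate block and 4 in each fit that left out a library. Cdkn1a passed in 4 alternatives (the replicate block, the set block and each set alone, but not averaged duplicates), and Cdkn1b in 2 (set block, 0.0232, and replicates 1 and 2 alone, 8.62e-04).

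Of all genes, 1581 passed without a block, 3912 with the replicate block and 4652 with the set as a block. Averaged duplicates gave 688, replicates 1 and 2 alone 3962, and replicates 3 and 4 alone 2880. Leaving out a library gave 1021 (SLIT2 replicate 2) to 1254. Genes whose response differed between sets numbered 521, 116 without the trend, and 122 to 579 with a library left out, where a lone sample is assumed to vary like the others. The Ccne1 difference ran from -0.117 to 0.0342 with a library left out. The causes were not tested. With the block, the members' calls changed only at Cdkn1a. Leaving out a library moved the change of Ccnd1 minus Ccnd3 between -1.91 and -1.70 and that of Cdk6 minus Cdk4 between -0.907 and -0.741, alternatives chosen after seeing the data. Without counts, precision at low genes such as Ccnd2 and Cdkn2d is unknown.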
